A study of Mus musculus with 7 samples.

Results

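Cholesterol synthesis and uptake in the fetal testis were followed through 7 genes: 5 enzymes of cholesterol synthesis (Hmgcs1, Sqle, Lss, Cyp51 and Dhcr7), the lipoprotein receptor Scarb1 and the transcription factor Srebf2. They were taken by gene symbol from a table of 24739 RefSeq genes, and all 7 were among the 13988 genes that were tested because their FPKM (fragments scaled to transcript length and library depth) averaged 0.5 or more. RNA-Seq was done on whole testes of mouse embryos at E14.5 on a C57BL/6 background, with 3 wild-type (WT) libraries and 4 libraries from homozygous Glis3 mutants (Glis3 zf5/zf5, Mutant below), and each library came from the pair of testes of a single embryo. The zf5 allele is a germline deletion that takes exon 4 of Glis3, which encodes part of the DNA-binding domain, so GLIS3 function was lost in every cell type of the embryo and not in the testis alone. The comparison asked whether transcripts that supply cholesterol, the substrate of steroid hormones, differed between WT and mutant testes. In whole tissue, fewer cells of a type and less RNA per cell cannot be told apart.

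Cholesterol is built from acetyl-CoA through mevalonate to squalene, which is oxidized, closed into lanosterol and trimmed to cholesterol in a chain of steps in the endoplasmic reticulum. When sterols run low, SCAP escorts the SREBP2 protein, the product of Srebf2, to the Golgi, where it is cut to release a transcription factor that acts on sterol regulatory elements of these genes, and INSIG proteins hold it back when sterols are plentiful. Fetal Leydig cells draw on such cholesterol, and on cholesterol taken from lipoproteins, to make androgens that masculinize the embryo.

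In brief, 5 of the 7 genes (Sqle, Lss, Cyp51, Dhcr7 and Scarb1) had a higher FPKM in all 4 mutant libraries than in any WT library, by 17.4% to 31.5% of the WT mean. Across all genes tested, 7.31% separated in this direction and 7.59% in the other, and among the 6085 genes within the range of mean FPKM of the 7 it was 8.46%. Hmgcs1 was 11.3% higher with groups that overlapped, and Srebf2 differed by -3.38%. By limma, 5 of the 7 had an unadjusted p-value under 0.05 with the higher level in the mutant, against 8.21% of all genes (8.79% were lower at that p-value), and 0 of the 7 passed the adjusted threshold of 0.05, which 1 gene of 13988 (0.00715%) passed. The median log2 fold change of the 7 genes was 0.23, beside 0.01 for all genes.

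The libraries held between 3454317 and 4670830 reads on LINE, SINE and LTR repeats, and 18644 to 19081 genes with an FPKM above 0; how many fragments an FPKM value rests on is unknown, and the lowest FPKM steps put the depth of the other libraries at 0.781 to 0.932 of that of WT replicate 1. The gene past the threshold was Cpsf4l, which was lower in the mutant; it is named only because it was alone. Glis3 itself had an FPKM of 7.63, 6.89 and 2.91 in WT replicates 1 to 3 and of 2.66 to 3.86 in the mutants (log2 fold change -0.69, limma adjusted p = 0.268), so the library labelled WT replicate 3 lay within the mutant range; an FPKM counts the kept exons of the allele too. Germ cell markers in that library were also near the mutant level. Without it 722 of 14019 genes passed (5.15%), 162 of them higher in the mutant (1.16%), and still 0 of the 7; without WT replicate 1, WT replicate 2 or mutant replicate 3, the number of genes past the threshold was 2, 5 and 2. Without the library labelled WT replicate 3, the log2 fold changes of the 7 genes were 0.12 for Hmgcs1, 0.23 for Sqle, 0.14 for Lss, 0.32 for Cyp51, 0.16 for Dhcr7, 0.37 for Scarb1 and -0.11 for Srebf2, with the lowest limma adjusted p-value, 0.086, for Sqle.

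The promoters of these genes are shown for the element through which SREBP2 acts. RefSeq promoter sequences (GRCm38.p6) were found for 5 of the 7 genes, and the 250 bases before each start were searched on both strands for TCACNCCA, a common form of the sterol regulatory element. It was in the promoters of Hmgcs1, from base -137 to -130 before the start, and of Srebf2, from -162 to -155, both on the gene's own strand, and in 3.67% of all 32851 promoters. The promoters of these 2 genes follow, Hmgcs1 from chr13:119690101-119690350 and Srebf2 from chr15:82147019-82147268, both on the plus strand and written 5′ to 3′ with the element in capitals.
Hmgcs1: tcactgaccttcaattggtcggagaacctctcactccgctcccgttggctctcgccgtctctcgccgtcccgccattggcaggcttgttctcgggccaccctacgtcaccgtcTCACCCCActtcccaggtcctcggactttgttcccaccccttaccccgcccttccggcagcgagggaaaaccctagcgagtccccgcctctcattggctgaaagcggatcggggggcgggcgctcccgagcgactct
Srebf2: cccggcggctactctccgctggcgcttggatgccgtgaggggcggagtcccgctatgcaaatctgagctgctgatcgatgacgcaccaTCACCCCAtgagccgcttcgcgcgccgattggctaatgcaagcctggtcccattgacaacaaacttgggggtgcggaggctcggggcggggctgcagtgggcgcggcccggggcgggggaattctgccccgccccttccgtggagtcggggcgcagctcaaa

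Of the 15 cholesterol synthesis genes with a RefSeq promoter, 2 (Hmgcs1 and Msmo1) held TCACNCCA, against 4.20% of all genes with a promoter. Other forms of the sterol regulatory element were not searched, so a promoter without these letters may still hold the element. SREBP2 acts beside NF-Y and SP1, whose letters are CCAAT and GGGCGG. Each was found for 14 of these 15 genes and for all 5 of the 7 genes that have a promoter in the table, against 37.5% and 35.4% of the 27025 genes with a promoter. The promoter of Cyp51, chr5:4104698-4104947 on the minus strand, is shown as that of the enzyme with the largest fold change of the 5. It held no TCACNCCA (other forms were not searched), 1 CCAAT from base -29 to -25, and 1 GGGCGG from -135 to -130. The CCAAT and the GGGCGG are in capitals below.
Cyp51: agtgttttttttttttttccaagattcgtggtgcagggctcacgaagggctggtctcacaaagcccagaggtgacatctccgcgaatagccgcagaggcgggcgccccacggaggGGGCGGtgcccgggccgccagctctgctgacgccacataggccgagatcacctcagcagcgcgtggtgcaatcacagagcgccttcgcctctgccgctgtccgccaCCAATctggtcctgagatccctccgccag
AAGGTCA, to which the steroidogenic factor NR5A1 binds, was found for Hmgcs1 and for Dhcr7, there in only 1 of its listed promoters. It was found for 4.70% of all genes with a promoter. TGGGGGGT, a core of the GLIS binding site, was found for 0 of the 15 genes and for 1.61% of all genes with a promoter. The promoters were searched for letters only, and binding was not measured.

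Hmgcs1 makes HMG-CoA, the precursor of mevalonate, and lies on chromosome 13 from 119690351 to 119708260. Its FPKM was 111, 123 and 109 in WT replicates 1 to 3 and 129, 129, 134 and 117 in mutant replicates 1 to 4. Mutant replicate 4 lay below WT replicate 2, and the other mutants lay above every WT library. WT averaged 114 ± 7.68 (SD, n = 3) and the mutant 127 ± 7.54 (SD, n = 4). The log2 fold change was 0.15 (standard error 0.07, 95% interval -0.01 to 0.32, limma adjusted p = 0.324).

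Sqle, squalene epoxidase, performs the first oxygen-dependent step of the pathway, and lies on chromosome 15 from 59315092 to 59331193. Its FPKM was 58.7, 64.8 and 62.0 in WT replicates 1 to 3 and 73.0, 73.7, 73.7 and 69.8 in mutant replicates 1 to 4. The groups did not overlap, and the mutant libraries lay close together. WT averaged 61.8 ± 3.07 (SD, n = 3) and the mutant 72.6 ± 1.85 (SD, n = 4), and the log2 fold change came to 0.23 (standard error 0.06, 95% interval 0.10 to 0.36, limma adjusted p = 0.172). The exact permutation test gave p = 0.0286, the smallest it can give for 3 against 4 libraries.

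Lss, lanosterol synthase, closes the sterol rings, and lies on chromosome 10 from 76531605 to 76557139. Its FPKM was 22.2, 22.1 and 17.96 in WT replicates 1 to 3 and 25.8, 22.8, 26.4 and 23.3 in mutant replicates 1 to 4. Mutant replicate 2 lay only just above WT replicates 1 and 2, while WT replicate 3 stood lower. WT averaged 20.8 ± 2.42 (SD, n = 3) and the mutant 24.6 ± 1.78 (SD, n = 4), and the log2 fold change came to 0.24 (standard error 0.09, limma adjusted p = 0.253; exact permutation p = 0.0571). Without the library labelled WT replicate 3 the log2 fold change was 0.14.

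Cyp51, lanosterol 14-alpha-demethylase, removes the first methyl group of lanosterol, and lies on chromosome 5 from 4080674 to 4104697. Its FPKM was 85.0, 111 and 87.4 in WT replicates 1 to 3 and 125, 116, 126 and 118 in mutant replicates 1 to 4. WT replicate 2 stood above the other 2 WT libraries and just below the lowest mutant. WT averaged 94.4 ± 14.2 (SD, n = 3) and the mutant 121 ± 5.08 (SD, n = 4). The log2 fold change of 0.37 (standard error 0.10, 95% interval 0.15 to 0.59, limma adjusted p = 0.174; exact permutation p = 0.0286) was the largest of the 5 enzymes.

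Dhcr7, which reduces 7-dehydrocholesterol to cholesterol at the end of the pathway, lies on chromosome 7 from 143823167 to 143848410. Its FPKM was 10.7, 11.04 and 9.33 in WT replicates 1 to 3 and 11.8, 11.8, 12.5 and 12.7 in mutant replicates 1 to 4. The groups did not overlap, and the level per length was the lowest of the 7 genes. WT averaged 10.4 ± 0.913 (SD, n = 3) and the mutant 12.2 ± 0.495 (SD, n = 4), and the log2 fold change came to 0.23 (standard error 0.08, limma adjusted p = 0.219; exact permutation p = 0.0286).

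Scarb1, the receptor that takes cholesterol esters from high density lipoprotein, lies on chromosome 5 from 125277087 to 125341094. Its FPKM was 57.9, 59.6 and 57.7 in WT replicates 1 to 3 and 73.1, 65.1, 92.2 and 76.6 in mutant replicates 1 to 4. The WT libraries nearly coincided and the mutants were spread out above them, with mutant replicate 3 highest. WT averaged 58.4 ± 1.06 (SD, n = 3) and the mutant 76.8 ± 11.4 (SD, n = 4). The log2 fold change of 0.38 (standard error 0.11, 95% interval 0.14 to 0.62, limma adjusted p = 0.186; exact permutation p = 0.0571) lay close to that of Cyp51. Without mutant replicate 3 it was 0.29, beside 0.35 for Cyp51, so no order between these genes can be given.

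Srebf2 lies on chromosome 15 from 82147269 to 82204960. Its FPKM was 27.9, 21.8 and 21.3 in WT replicates 1 to 3 and 24.6, 23.8, 22.4 and 20.6 in mutant replicates 1 to 4. The highest library was a WT library and the lowest a mutant one, and the groups overlapped throughout. WT averaged 23.7 ± 3.7 (SD, n = 3) and the mutant 22.9 ± 1.78 (SD, n = 4), with a log2 fold change of -0.04 (95% interval -0.29 to 0.20, limma adjusted p = 0.875). The sign turned to 0.08 without WT replicate 1 and to 0.01 without mutant replicate 4, so no direction can be given for Srebf2. Its transcript level does not measure the cleavage of the protein, on which SREBP2 activity depends.

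**Figure D1:**
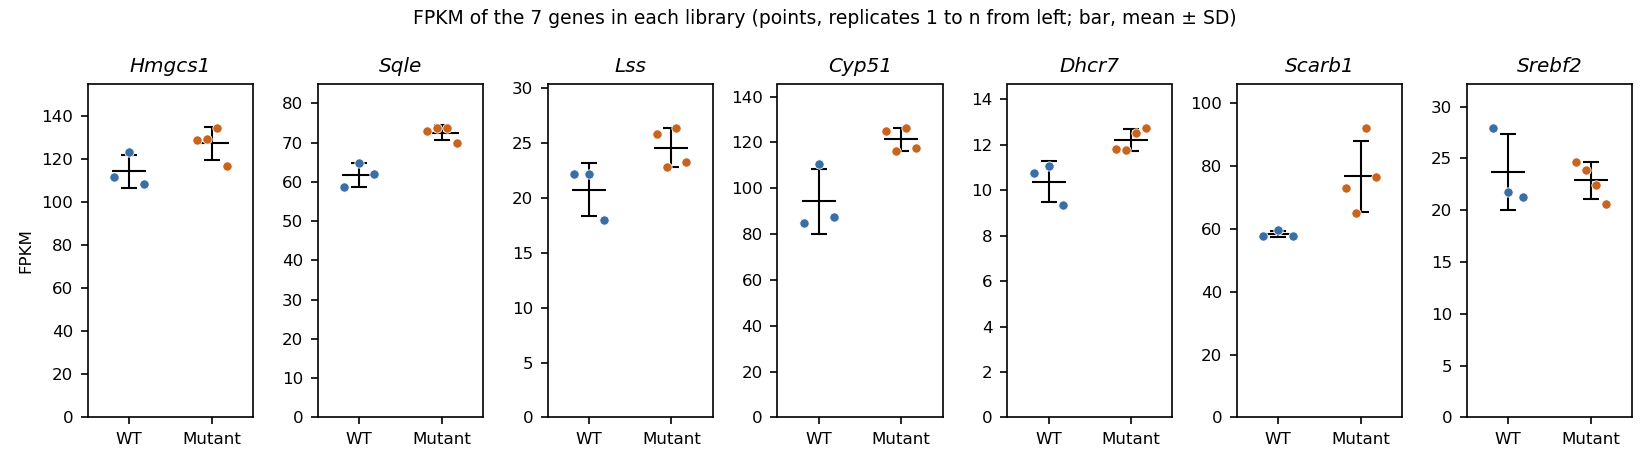
FPKM (vertical axes, each from 0) of the 7 genes in each WT (blue, n = 3) and mutant (orange, n = 4) library, with bars for the mean ± SD. In Sqle, Lss, Cyp51, Dhcr7 and Scarb1 all mutant points lie above all WT points, whereas in Hmgcs1 and Srebf2 they overlap.

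Among themselves, the 5 enzymes and Scarb1 varied together across the 7 libraries. Pearson's r of their 15 pairs was 0.68 to 0.94 with a median of 0.80, whereas Srebf2 gave -0.32 to 0.22 with the other 6 genes. These points share their libraries and the 2 groups, so r describes these libraries only. WT replicate 3 was the lowest WT library in 5 of the 7 genes, and mutant replicate 3 was the highest of all libraries in 5. The genes outside the 7 whose log2 profile was most like their mean profile over the 7 libraries were Hspa1b (r = 0.977), Tm7sf2 (r = 0.971), Kazald1 (r = 0.970), Ormdl3 (r = 0.967) and Rab42 (r = 0.965). Of these, Tm7sf2 encodes a sterol reductase of the same pathway and Hspa1b an inducible heat shock protein whose reads are hard to tell from those of its near-identical copy Hspa1a. Hmgcs1 and Cyp51 ranked 626 and 705 by mean FPKM among all genes, Scarb1 and Sqle 1249 and 1271, and Srebf2, Lss and Dhcr7 4045, 4088 and 6710.

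The rest of the synthesis pathway lay on the same side. All 20 listed enzymes from acetyl-CoA to cholesterol were tested, and 20 had a log2 fold change above 0 (52.1% of all genes did). Of the 20, 14 had an unadjusted limma p-value under 0.05 with the higher level in the mutant (8.21% of all genes). Complete separation in this direction was found for 10 (7.31% of all genes). Their median was 0.25, and it was 0.27 over the 15 that are not among the 7. By limma 0 of the 20 passed the adjusted threshold. The mean log2 level of the 20 genes was 5.13, 5.23 and 5.07 in WT replicates 1 to 3 and 5.46, 5.36, 5.46 and 5.31 in mutant replicates 1 to 4, so that every mutant library lay above every WT library in the list as a whole.

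In the mevalonate part (8 genes, median 0.27), Pmvk, which phosphorylates phosphomevalonate, separated with 49.9, 57.9 and 54.0 FPKM in WT and 74.5, 65.4, 73.4 and 65.2 in the mutant (log2 fold change 0.37, limma adjusted p = 0.164). Mvd, which makes isopentenyl diphosphate, and Fdps, which makes farnesyl diphosphate, separated with log2 fold changes of 0.27 and 0.31. The highest estimate of this list, 0.38 for the thiolase Acat2, came with overlapping groups (28.5 to 49.9 FPKM in WT, 31.6 to 64.4 in the mutant), and the lowest was 0.01 for the isomerase Idi1. Without the library labelled WT replicate 3 the medians of this list and of the next were 0.28 and 0.20. In the part from squalene on (12 genes, median 0.24), Tm7sf2, a sterol C14-reductase, had the largest log2 fold change, 0.58, with 20.7, 26.8 and 16.5 FPKM in WT and 31.9, 29.0, 34.8 and 30.4 in the mutant (limma adjusted p = 0.173). Ebp, the sterol isomerase, had 34.9, 42.2 and 39.2 FPKM in WT and 54.9, 48.3, 50.6 and 52.0 in the mutant (log2 fold change 0.41, limma adjusted p = 0.136). Ebp was the 1 gene of the 20 that passed without the library labelled WT replicate 3 (limma adjusted p = 0.0453). In that setting 5.15% of all genes passed, and 1.16% passed with the higher level in the mutant, so 1 of 20 is near the share over all genes. Sc5d, a desaturase, separated narrowly at 0.18.

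Genes that control SREBP were mixed. Of 7 listed, 5 had a log2 fold change above 0 (52.1% of all genes) and 2 separated (7.31% of all genes in this direction). The median was 0.07, and 0 passed the threshold by limma. An unadjusted limma p-value under 0.05 was found for 2, both higher in the mutant (8.21% of all genes). Scap, the escort of SREBP, had 20.1, 20.7 and 21.9 FPKM in WT and 24.2, 23.98, 26.2 and 23.7 in the mutant (0.22, limma adjusted p = 0.186). Insig2 separated at a log2 fold change of 0.08, and Insig1, itself a target of SREBP, had the largest estimate, 0.30, with overlapping groups. Without WT replicate 2 the median of this list was -0.01 and without mutant replicate 1 it was 0.02.

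Genes of lipoprotein uptake and lysosomal release (10 of 11 tested) lay at a median of 0.12 on the log2 scale, and Scarb1 was the 1 gene of the list that separated. Over all genes tested 7.31% separated with the mutant higher and 7.59% with the mutant lower, so 1 gene in a list this short is near the share over all genes. The same holds for the efflux and storage genes below. Mylip, a ubiquitin ligase that degrades lipoprotein receptors, had the lowest estimate, -0.11. Of the efflux genes (4 of 5 tested, median -0.11, and -0.07 without WT replicate 1), Apoe, a lipoprotein component that carries cholesterol out of cells, had 164, 204 and 248 FPKM in WT and 279, 252, 270 and 292 in the mutant. All mutant libraries were higher than WT, with a log2 fold change of 0.43 (limma adjusted p = 0.193, and 0.0263 without the library labelled WT replicate 3). Nr1h2, the sterol sensor LXR-beta, was lower in all mutant libraries (-0.16, limma adjusted p = 0.241), and the transporter Abcg1 had the lowest estimate, -0.24, with overlapping groups. Of 4 genes of ester storage (median 0.11, and 0.05 without WT replicate 1 or 0.07 without mutant replicate 4), the hydrolase Nceh1 separated, with 4.16 to 4.41 FPKM in WT and 5.10 to 6.05 in the mutant (0.34, limma adjusted p = 0.173). Soat1, which makes cholesterol esters, had the lowest estimate of them, -0.14.

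**Figure D2:**
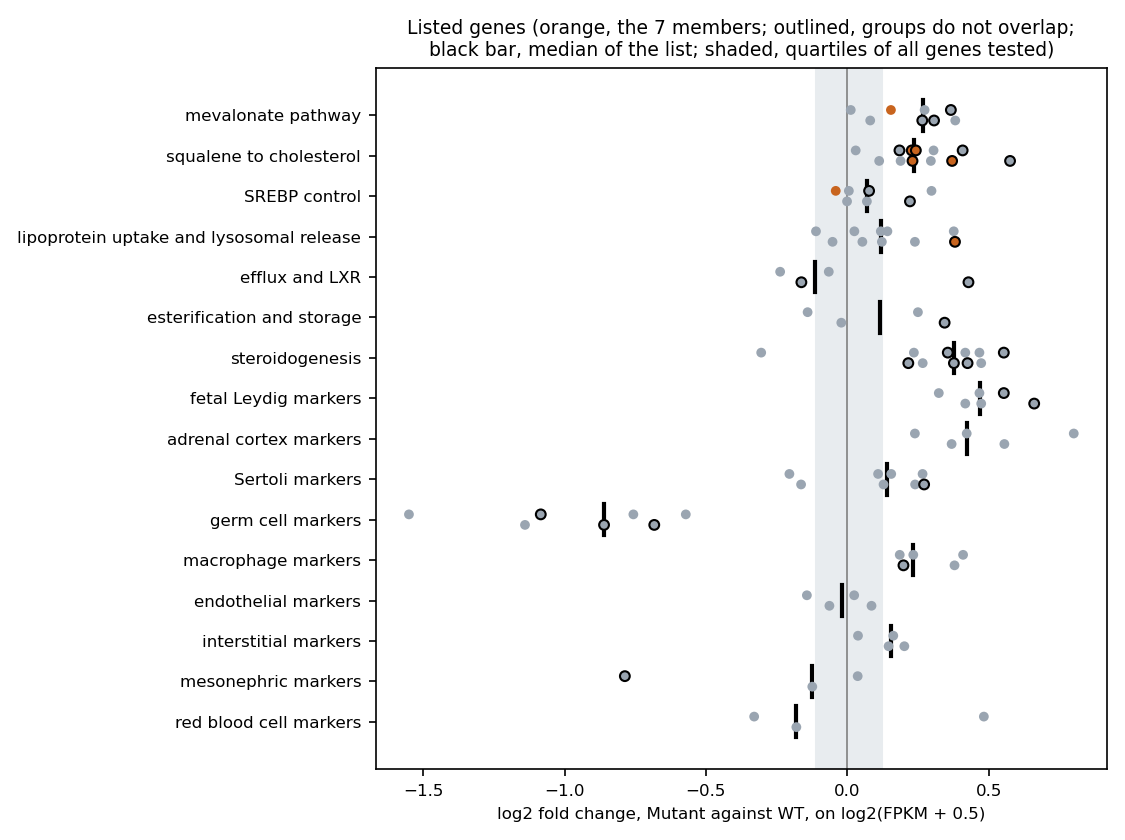
Log2 fold change (horizontal axis, Mutant against WT on log2(FPKM + 0.5)) of each tested gene by list; skeletal muscle genes are given in the text only. Orange points are the 7 genes, and outlined points have groups that do not overlap. Black bars are list medians, and the shaded band holds the middle quartiles of all genes. The medians of both synthesis lists (0.27 and 0.24) lie right of the band. So do those of the steroidogenesis, fetal Leydig, adrenal cortex, macrophage, interstitial and Sertoli lists. Germ cell markers lie far left of the band, and the efflux, mesonephric and red blood cell medians lie left of it.

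The genes that use cholesterol lay mostly on the same side. Star carries cholesterol into mitochondria, and its FPKM was 121, 162 and 119 in WT replicates 1 to 3 and 197, 157, 193 and 192 in mutant replicates 1 to 4. Mutant replicate 2 lay below WT replicate 2, so the groups overlapped (log2 fold change 0.47, limma adjusted p = 0.18). Cyp11a1, which cleaves the cholesterol side chain there, had 434, 708 and 463 FPKM in WT and 780, 735, 732 and 823 in the mutant. The groups did not overlap (log2 fold change 0.55, standard error 0.16, limma adjusted p = 0.186). Of 11 steroidogenic genes, 10 had a log2 fold change above 0 (52.1% of all genes). An unadjusted limma p-value under 0.05 in that direction was found for 8 (8.21% of all genes), and 5 separated (7.31% of all genes). These 5 were Cyp11a1, its electron donors Fdx1 (0.43) and Fdxr (0.38), the sterol carrier Stard3 (0.22) and Hsd17b3 (0.36), which makes testosterone. Hsd3b6 had the lowest estimate, -0.30, at 0.147 to 1.47 FPKM, and shares much of its sequence with Hsd3b1. By limma 0 of the 11 passed the threshold, and 3 did without the library labelled WT replicate 3 (Fdx1, Fdxr and Nr5a1), with a list median of 0.39. Over all genes 5.15% passed in that setting, and 1.16% with the higher level in the mutant.

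Set side by side, the median log2 fold change was 0.25 for the 20 synthesis genes and 0.38 for the 11 steroidogenic genes. The mean log2 level of the synthesis genes less that of the steroidogenic genes was -0.88, -1.10 and -1.23 in WT replicates 1 to 3 and -1.10, -1.06, -1.09 and -1.30 in mutant replicates 1 to 4. The ranges overlapped and they averaged -1.07 ± 0.17 (SD, n = 3) and -1.14 ± 0.11 (SD, n = 4), a difference of -0.07 that was smaller than the spread within either group. The balance of the 2 gene groups thus showed no difference beyond the spread of these libraries.

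Lists of cell type markers had medians on both sides of 0, and their part in the result was not tested. The fetal Leydig list shares Star, Cyp11a1, Cyp17a1 and Hsd3b1 with the steroidogenic list, so these values are counted in both. Of the 6 fetal Leydig markers, 6 had a log2 fold change above 0 (median 0.47), and Insl3, a hormone of these cells, separated with 190, 255 and 199 FPKM in WT and 389, 321, 305 and 335 in the mutant (0.66, limma adjusted p = 0.133); their summed FPKM was 1602 to 2667 in WT and 2507 to 3083 in the mutant, and the lowest estimate was 0.32 for Lhcgr. The 7 germ cell markers had estimates from -1.55 (Mael) to -0.57 (Dppa3), with a median of -0.86. Among them 3 were lower in every mutant library (Ddx4, -1.08, Dazl, -0.86, and Sall4, -0.68), against 7.59% of all genes. The summed FPKM of the 7 markers was 1383 and 1085 in WT replicates 1 and 2. It was 593 in the library labelled WT replicate 3, and 479 to 644 in the mutants. In that library, whose germ cell sum was within the mutant range, the mean log2 level of the 7 genes was 5.29, the lowest of all libraries (5.40 and 5.46 in the other WT libraries, 5.55 to 5.68 in the mutants). The Sertoli markers Amh, Sox9 and others summed to 980 to 1232 FPKM in WT and 1184 to 1370 in the mutant (8 genes, median 0.14, and 0.08, 0.05, 0.29 and 0.08 without WT replicates 1, 2 and 3 and mutant replicate 3 in turn), with Cst9 (0.27) separating and Dmrt1 lowest (-0.20), so the labelled tissue was borne out by its markers.

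The other marker lists are given in brief. Median log2 fold changes were 0.42 for adrenal cortex (5 of 6 tested, 0.24 for Mc2r to 0.80 for Cyp11b1), 0.23 for macrophage (5 genes, 0.19 for Cd68 to 0.41 for C1qb, with Csf1r separating at 0.20), 0.15 for interstitial (4 genes, lowest 0.04 for Tcf21), -0.02 for endothelial (4 genes, -0.14 for Kdr to 0.09 for Cdh5), -0.12 for mesonephric (3 of 4 tested, 0.04 for Pax8 to -0.79 for Lhx1, which separated) and -0.18 for red blood cell markers (3 of 4 tested, -0.33 for Hbb-y to 0.48 for Alas2). Lhx1, listed here as mesonephric, is placed by the paper among genes of undifferentiated spermatogonia, so it does not mark the mesonephros alone. Skeletal muscle markers (3 of 4 tested, median 0.96, 0.81 for Ttn to 1.28 for Myh3) summed to 5.91 FPKM or more in WT replicate 1 and mutant replicates 1, 2 and 4 and to 0.846 or less in the other libraries. The medians of some lists rested on single libraries. That of the macrophage list was 0.36 without WT replicate 2 or 3, and that of the interstitial list 0.09 without mutant replicate 2. That of the mesonephric list was -0.24, -0.0023 and -0.08 without WT replicate 2, WT replicate 3 and mutant replicate 3. That of the muscle list was 2.12, 0.63, 1.70 and 0.47 without WT replicates 1 and 3 and mutant replicates 3 and 4. The endothelial and red blood cell medians changed sign, over ranges of -0.17 to 0.07 and -0.40 to 0.37. By limma 0 of the marker genes passed the threshold with all libraries. With the higher level in the mutant, the unadjusted limma p-value was under 0.05 for 5 of 6 Leydig, 1 of 8 Sertoli, 3 of 5 adrenal and 1 of 5 macrophage markers. Over all genes this share was 8.21%. With the lower level in the mutant, it was under 0.05 for 6 of 7 germ cell and 1 of 3 mesonephric markers, against 8.79% of all genes. Without the library labelled WT replicate 3, 5.15% of all genes passed the threshold. Of the markers, those that passed were then 6 of the 7 germ cell markers, Mrap of the adrenal and Ptgds of the Sertoli list.

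**Figure D3:**
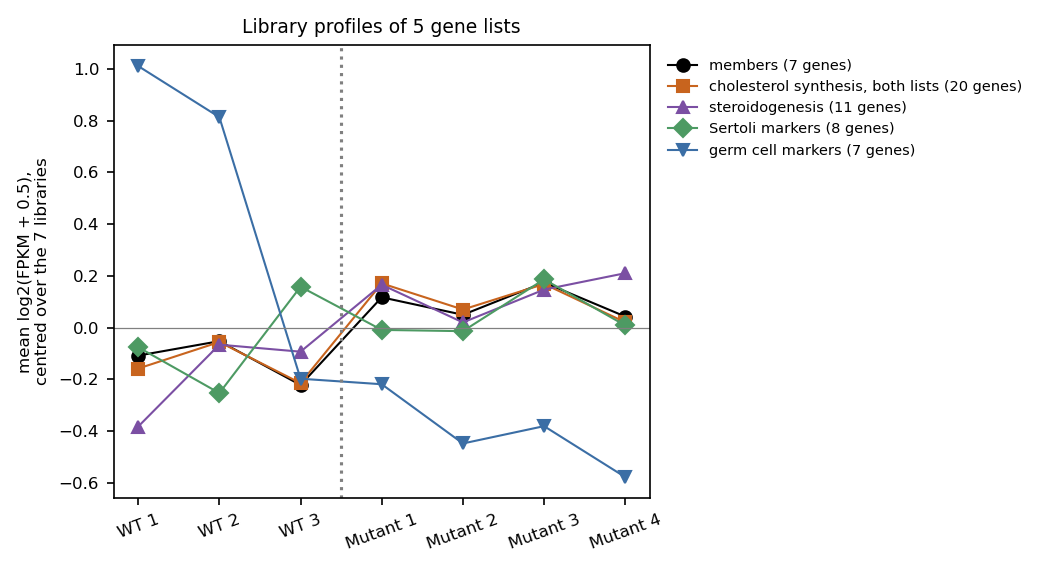
Mean log2(FPKM + 0.5) of 5 gene lists (vertical axis, centred on the mean over the 7 libraries) in each library, with WT left and mutants right of the dotted line. The 7 genes and the 20 synthesis genes lie at or below -0.05 in the 3 WT libraries and above 0 in the 4 mutants, while germ cell markers in WT replicate 3 lie just above the highest mutant.

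A second readout came from reads on repeats inside the gene bodies, which hold introns as well as exons. Reads on LINE, SINE and LTR loci that lay wholly inside 1 gene were summed per gene, and edgeR's quasi-likelihood test was run on the 12267 genes that averaged 10 reads or more. The reads come from the same libraries, carry no strand, and are partly the same fragments as the FPKM where a repeat lies in an exon. By edgeR 0 of the 7 genes passed the adjusted threshold, as 1 gene did over all (0.00815%, Rimbp2). An unadjusted p-value under 0.05 was found for Hmgcs1 and Cyp51, both higher in the mutant, as for 6.65% of all genes.

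Cyp51 held 11988 such reads over the 7 libraries on 27 loci, and 41.7% of them lay on a PB1D7 element in its 3′ UTR, on chromosome 5 from 4082152 to 4082242 (mm10). The CPM (reads scaled to the TMM-adjusted library size) was 388, 572 and 440 in WT replicates 1 to 3 and 619, 572, 691 and 621 in mutant replicates 1 to 4. The groups did not overlap, though mutant replicate 2 only just exceeded WT replicate 2 (5.32% of all genes separated in this direction). The log2 fold change was 0.43 (standard error 0.12, edgeR adjusted p = 0.204), and without WT replicate 2 it was 0.60 and passed the threshold (edgeR adjusted p = 0.0386, in a range of 0.0386 to 0.535 over all alternatives). Split by position, it was 0.43 on the 3 loci that overlap an annotated exon (9885 reads) and 0.22 on the other 24 loci (2103 reads). On those 24 loci the CPM was 85.9 to 97.1 in WT and 95.7 to 108 in the mutant, and the groups overlapped. Exon loci and other loci were fitted separately, each scaled to its own library sizes, while every CPM keeps the scaling of all loci.

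Hmgcs1 held 5285 reads on 17 loci, of which 54.5% lay on an LFSINE_Vert element in an annotated 5′ UTR exon, on chromosome 13 from 119694984 to 119695056. The CPM was 207, 247 and 196 in WT replicates 1 to 3 and 260, 262, 293 and 244 in mutant replicates 1 to 4. Mutant replicate 4 lay just under WT replicate 2, as it did by FPKM (log2 fold change 0.29, standard error 0.10, edgeR adjusted p = 0.265). On exon loci the log2 fold change was 0.31 and on the others 0.17. In both genes the estimate was thus larger on exon loci. The difference between exon and other loci was not tested, and the separate scaling of the fits may enter it.

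Over all loci, the log2 fold change was 0.23 for Sqle (edgeR adjusted p = 0.489), 0.33 for Lss (0.430), 0.13 for Dhcr7 (0.734) and 0.24 for Scarb1 (0.548). Single libraries moved 3 of these: Sqle was at 0.10 without WT replicate 1, Dhcr7 at 0.03 without WT replicate 3 or mutant replicate 3, and Scarb1 at 0.15 without WT replicate 1 and 0.42 without WT replicate 3. By position, and again from separately scaled fits, the estimates of these 4 genes lay in the opposite order to those of Cyp51 and Hmgcs1. Outside exons, the log2 fold change was 0.31 for Sqle (874 reads), 0.42 for Lss (361 reads), 0.24 for Dhcr7 (524 reads) and 0.29 for Scarb1 (1195 reads), and on exon loci 0.12, 0.15, 0.01 and 0.12. These rest on few reads, with standard errors of 0.15 to 0.25, so an order between exon and other loci was not detectable at this depth. Lss separated outside exons, with a CPM of 11.9 to 15.6 in WT and 16.4 to 23.2 in the mutant. Srebf2 gave 0.06 (2691 reads, standard error 0.08, edgeR adjusted p = 0.829), with 110 to 126 CPM in WT and 122 to 128 in the mutant, and again no difference beyond its spread (0.10 without WT replicate 1 and -0.00011 without WT replicate 2).

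**Figure D4:**
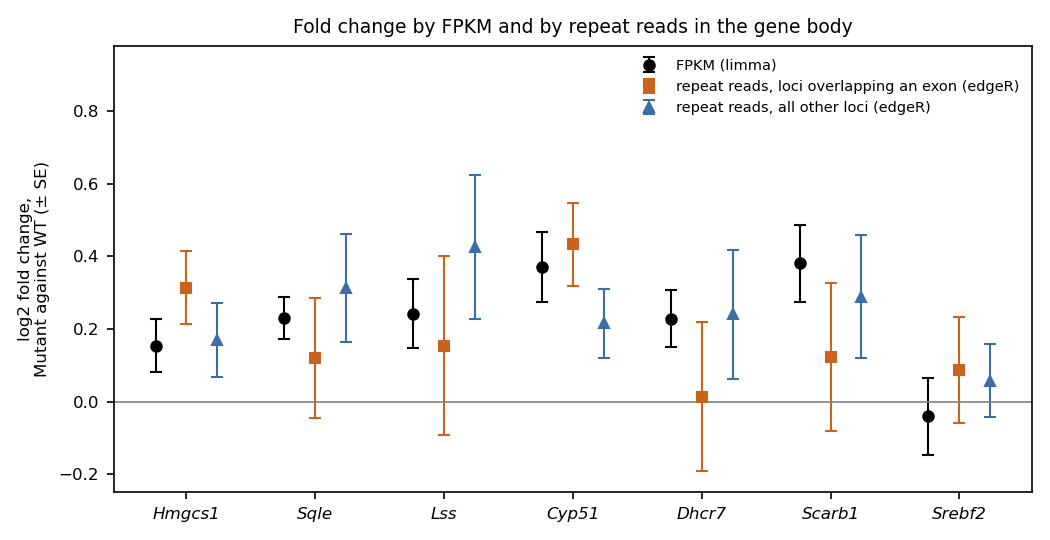
Log2 fold change (vertical axis, Mutant against WT, ± standard error) of the 7 genes by FPKM (black circles), by repeat reads on loci overlapping an exon (orange squares) and by repeat reads on all other loci (blue triangles). Exon loci and other loci were fitted separately, each with its own scaling. Repeat reads outside exons gave estimates above 0 for all 7 genes, from 0.06 for Srebf2 to 0.42 for Lss. Over all loci, 49.9% of all genes tested by repeat reads had a log2 fold change above 0.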

How the data were processed

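RNA was taken from whole E14.5 testes, depleted of ribosomal RNA and primed at random without poly-A selection. Per the labels and the methods, the authors aligned reads to mm10 with TopHat2 2.0.12, and the deposited FPKM values are from Cuffnorm on RefSeq genes. The second deposited table holds counts, not normalized, of uniquely mapped reads on each LINE, SINE and LTR locus, made by the authors with HTSeq. In both tables the names of WT replicate 3 and mutant replicate 1 ran together in the header and were read in that order.

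Sample titles gave the groups and replicate numbers. FPKM was tested as log2(FPKM + 0.5) with limma 3.58.1 (R 4.3.3; lmFit and eBayes with a trend, all 7 libraries, no covariate, two-sided, Benjamini-Hochberg over the 13988 genes averaging 0.5 FPKM or more, threshold 0.05), on a scale that understates changes of low genes. Cuffdiff, the tool of the study, needs aligned reads and was not run. Repeat loci wholly inside 1 gene were summed per gene (1251759 of 3494995 loci, 58086 of them overlapping an exon of GENCODE M21) and tested with edgeR 4.0.16 (quasi-likelihood, TMM, mean of at least 10 reads). Single genes were also compared by two-sided exact permutation over 35 splits, with a smallest p-value of 0.0286. Simulated data were run through limma and edgeR, each with 200 planted log2 differences of 1.5. Of these, limma recovered 88% and edgeR 95%. No other test was simulated, and neither were differences as small as those of the 7 genes. Figures and tables were made in Python 3.11.15.

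The 7 genes and the 17 gene lists were chosen with earlier results of these data known. Named with values were the 7 genes; of every list the genes past the threshold, those whose groups did not overlap and the highest and lowest estimate; Star, Cyp11a1 and Glis3; and the 5 genes with the profile most like that of the 7. The values of 2 listed genes that this rule names are not reported here. Others named were chosen after their values were seen. Alternatives were pseudocounts of 0.1 and 1, other filters, quantile normalization, centring, no trend, array weights, a replicate block, other scalings of counts, DESeq2 1.42.0 for counts, loci outside exons, and leaving out each library; loci overlapping an exon alone were added after seeing the data. Each library is a separate embryo. FPKM gives no depth per gene, so no counting interval is given.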

Additional observations from a re-analysis of the deposited data

Results flagged for a closer look

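Among groups of 4 mutant libraries, a value was looked at again where the gap between the highest or lowest library and its neighbour, divided by the range of the group, exceeded Dixon's critical value of 0.829. By chance this happens in about 1 in 20 groups, and here it was met in 5 of 106. It was met by none of the 7 genes in FPKM. Mutant replicate 2 stood low in Star (157 FPKM beside 192 to 197, ratio 0.890) and in the CPM of repeat reads in Sqle (58.7 beside 72.7 to 74.0, ratio 0.915), whereas Sqle by FPKM was 73.7 in that library. Mutant replicate 3 stood high in the Sertoli marker Aard (244 FPKM beside 175 to 184, ratio 0.860), and mutant replicate 1 in the germ cell marker Dnd1 (56.1 beside 38.1 to 39.4, ratio 0.926) and the endothelial marker Tie1 (10.4 beside 8.49 to 8.54, ratio 0.974).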

How the results depend on the processing

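For Hmgcs1, Sqle, Lss, Cyp51, Dhcr7 and Scarb1 the log2 fold change by FPKM stayed above 0, and for all 7 genes the adjusted p-value by limma stayed above 0.05, under each of the 16 alternatives; the lowest was 0.0789 for Cyp51 (0.30 to 0.49 on the log2 scale). Srebf2 ranged from -0.11 to 0.08 when 1 library was left out (0.082 without WT replicate 1, 0.0074 without mutant replicate 4). Over all genes, the number past the threshold was 1, and 4 with no filter, 3 with quantile normalization and 1 to 722 when a library was left out. By repeat reads it was 1, and 48 by DESeq2, 47 with no filter, 28 with exon loci left out, 0 with exon loci alone, and 0 to 138 when a library was left out. The log2 fold change of repeat reads was 0.31 to 0.60 for Cyp51 and -0.00011 to 0.10 for Srebf2 when a library was left out, the low end for Srebf2 being the value without WT replicate 2. List medians then reached from -0.0062 to 0.082 for SREBP control, -0.15 to -0.067 for efflux, 0.046 to 0.16 for ester storage, 0.20 to 0.36 for macrophage, 0.085 to 0.21 for interstitial, -0.24 to -0.0023 for mesonephric, 0.47 to 2.12 for muscle, 0.048 to 0.29 for Sertoli, -0.17 to 0.070 for endothelial and -0.40 to 0.37 for red blood cell markers. The causes were not tested. Deviations of libraries with the same replicate number correlated with r = 0.198, -0.177 and 0.229. WT replicates 1 and 3 correlated best with the mutant of the same number, and WT replicate 2 with mutant replicate 1 (r = 0.127). These few low values cannot decide whether the numbers pair the libraries. With the replicate block, 0 genes passed in either table, and Srebf2 was at 0.0074. Depth per gene is unknown for FPKM, and the repeat reads of Lss (18 to 29 per library on exon loci) limit that comparison most.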
